A study of Homo sapiens with 6 samples.

Results

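After loss of both type II topoisomerases, 1384 stretches of the HCT116 genome lay inside LaminB1 regions right beside, or in the gaps between, regions already called in control cells. They were chosen in 1 kb steps as runs inside the regions of both double loss lists and outside the regions of both control lists. A run had to be at least 10 kb long and to have a region of at least 1 control list within 20 kb on 1 or both sides. Chromosomes 1 to 22 without 20 were used, which makes 21 chromosomes. Coverage in the 4 lists therefore chose the stretches, and it is given below as a description with no test. Of 5690 gained runs of any length, these 1384 held 25.546 Mb, or 45.5% of the 56.193 Mb gained in all. Another 724 runs of at least 10 kb had no control region within 20 kb and held 16.128 Mb (28.7%), and 3582 shorter runs held 14.519 Mb (25.8%). With the groups exchanged, stretches at double loss edges held 48.3% of all lost length, so the share at edges was not particular to gain.

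LaminB1 was profiled by CUT&RUN, in which an antibody directs a nuclease to release the DNA next to its target, in HCT116, an established human colorectal carcinoma line. All cells carried the mini auxin-inducible degron (mAID) on both TOP2A alleles and were arrested in G1 with 2 µM palbociclib, a CDK4/6 inhibitor, for 28 h. The control group (2 LaminB1 libraries) was this TOP2A-mAID line without auxin, although its genotype label reads wildtype. The double loss group (2 LaminB1 libraries) was TOP2A-mAID/TOP2B -/- cells given 500 µM auxin (indole-3-acetic acid) for 8 h, which removes up to 95% of TOP2A per the labels. Each group also had 1 IgG library. No label says how many TOP2B -/- clones were used or that replicates were separate cultures, and region lists hold no check of either protein.

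Lamina-associated domains are long, mostly gene-poor and weakly transcribed parts of chromosomes that lie against the nuclear lamina, the meshwork of lamins under the inner nuclear membrane. LaminB1 is a farnesylated lamin that stays at this membrane, so the DNA released around it marks the nuclear rim. TOP2A and TOP2B pass one DNA duplex through another and so remove supercoils and tangles. TOP2A is mostly made in dividing cells, while TOP2B is also present in cells that do not divide and acts at transcribed genes and loop anchors.

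The starts of 41 protein-coding genes lay inside the gained edge stretches, or 0.279% of the 14716 genes with a mapped start. For 6 of the genes described below, the 250 bases before the start are shown because the start itself moved from outside to inside LaminB1 regions. The sequences are from RefSeq (GRCh38.p14), 5′ to 3′ on the gene's strand, and capitals mark a match on either strand to 1 of 5 motifs. These were TATAAA (bound by TBP), the CCAAT box, GGGCGG (bound by SP1), the motif CCACNAG from the start of the CTCF core, and as the last ATGGCGG, a YY1 core. FAM24A and FAM24B, 2 small genes of unsettled function, shared 1 stretch. ABCA5 and ABCA10 encode lipid transporters of the ABCA family, OR2L5 an olfactory receptor and NAALADL2 a protein related to glutamate carboxypeptidase II. The start given for NAALADL2 lies inside the gene body as annotated.
FAM24A, chr10:122910360-122910609, plus strand: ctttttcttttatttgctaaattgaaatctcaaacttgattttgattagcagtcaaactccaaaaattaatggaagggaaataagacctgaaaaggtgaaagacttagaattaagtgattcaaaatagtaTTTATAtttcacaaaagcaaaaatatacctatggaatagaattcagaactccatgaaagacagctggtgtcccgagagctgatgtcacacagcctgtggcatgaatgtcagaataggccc
FAM24B, chr10:122879642-122879891, minus strand: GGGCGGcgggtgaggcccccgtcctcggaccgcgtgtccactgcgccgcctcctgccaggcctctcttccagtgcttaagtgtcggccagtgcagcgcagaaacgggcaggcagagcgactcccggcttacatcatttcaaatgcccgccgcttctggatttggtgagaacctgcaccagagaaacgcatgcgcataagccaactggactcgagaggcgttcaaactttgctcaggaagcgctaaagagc
ABCA5, chr17:69327134-69327383, minus strand: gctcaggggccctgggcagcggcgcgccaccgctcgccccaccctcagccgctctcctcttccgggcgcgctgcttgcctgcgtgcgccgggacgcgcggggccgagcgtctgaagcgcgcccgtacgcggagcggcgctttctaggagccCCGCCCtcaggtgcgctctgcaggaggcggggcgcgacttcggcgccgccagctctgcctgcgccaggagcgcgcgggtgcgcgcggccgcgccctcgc
NAALADL2, chr3:174859084-174859333, plus strand: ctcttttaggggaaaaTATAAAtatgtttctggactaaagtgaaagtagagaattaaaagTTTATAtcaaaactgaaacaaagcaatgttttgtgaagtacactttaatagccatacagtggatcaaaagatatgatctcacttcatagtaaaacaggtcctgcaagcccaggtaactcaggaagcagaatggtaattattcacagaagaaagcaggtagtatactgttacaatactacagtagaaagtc
OR2L5, chr1:248013410-248013659, plus strand: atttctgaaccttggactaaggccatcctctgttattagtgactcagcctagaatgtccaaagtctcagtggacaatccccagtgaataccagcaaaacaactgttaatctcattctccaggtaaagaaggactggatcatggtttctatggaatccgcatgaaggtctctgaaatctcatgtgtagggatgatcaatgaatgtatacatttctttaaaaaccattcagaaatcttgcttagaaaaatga
ABCA10, chr17:69244849-69245098, minus strand: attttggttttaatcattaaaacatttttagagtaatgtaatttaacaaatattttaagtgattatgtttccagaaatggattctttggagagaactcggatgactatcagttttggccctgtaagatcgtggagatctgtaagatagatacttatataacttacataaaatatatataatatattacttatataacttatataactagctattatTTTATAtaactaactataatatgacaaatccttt

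The 6 starts differed widely in base composition. GC content was 34.4% for FAM24A, 33.6% for NAALADL2, 38.8% for OR2L5 and 23.6% for ABCA10, against 61.2% for FAM24B and 79.2% for ABCA5. ABCA5 held 42 CG pairs in its 250 bases and NAALADL2 held 0. TATAAA or its reverse complement occurred in FAM24A, NAALADL2 and ABCA10, GGGCGG or its reverse complement in FAM24B and ABCA5, and OR2L5 had no match. Over all 41 starts the median GC content was 42.4%, against 62.4% over all 14716, and 46.4% over the 390 starts in sequence called in all 4 lists. A ratio of observed to expected CG pairs above 0.6 was found at 10 of the 41 (24.4%), at 98 of the 390 (25.1%) and at 63.9% of all starts. TATAAA was present in 13 of the 41 windows (31.7%), in 18.97% of the 390 and in 9.37% of all. CCAAT was present in 31.7% of the 41 and 34.2% of all, GGGCGG in 31.7% and 56.3%, CCACNAG in 7.32% and 11.2%, and ATGGCGG in 0% and 3.10%. The gained starts were thus AT-rich and poor in CG pairs in about the measure of starts kept in all 4 lists, and these shares are a description of letters, not of bound factors.

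Most gained edge stretches were short. The median length was 15 kb (interquartile range 12 to 20 kb), 397 were at least 20 kb, 121 at least 30 kb, 22 at least 50 kb and 4 at least 100 kb, and the longest was 278 kb. At the length limit, 136 stretches were 10 kb and 143 were 11 kb long, while 171 runs of 9 kb and 174 of 8 kb met the rest of the rule and stayed out. At the distance limit, 76 stretches had their nearest control region 16 to 20 kb away, and 44 further runs had it 21 to 25 kb away.

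At these limits, gap filling and outward extension were of similar number. Control regions lay within 20 kb on both sides of 643 stretches (46.5%, exact 95% interval 43.8 to 49.1%, counting error only), which held 10.83 Mb and are called gap-filling here. The other 741 (14.716 Mb) had a control region on 1 side only and are called flank extensions, with 380 on the left and 361 on the right in genome coordinates. A control region directly adjoined 930 stretches (67.2%), lay 1 to 5 kb away for 163 and 6 to 20 kb away for 291. Both control lists had a region within 20 kb, on the same side or on opposite sides, for 800 stretches (57.8%). Only control 1 had one for 275 stretches and only control 2 for 309. Both control lists had a region on the same side for 695 stretches. The gaps between control regions that were being filled had a median of 22 kb (16 to 31 kb), of which the stretch took up a median of 73.7%, and 183 stretches closed their gap completely. The gap-filling share moved with the limits: it was 19.7% among directly adjoining stretches, 22.6% with a neighbour in both control lists on the same side, 36.9% with the limit at 10 kb and 59.9% at 50 kb, and 33.9% in the upper 50% of regions by log2 fold. The same rule with the groups exchanged chose lost stretches of similar geometry. Of these, 45.3% were gap-filling, 62.9% adjoined a double loss region and 60.3% had a region of both double loss lists within 20 kb.

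Few control edges were involved. After joining the 2 control lists there were 20488 region edges, and 1987 of them (9.70%) had a gained stretch within 20 kb. The same rule with the groups exchanged gave 877 lost stretches beside double loss regions, which held 14.501 Mb and touched 1250 of 21134 double loss edges (5.91%). Gained edge stretches were 1.58 times as many and 1.76 times as long in sum as lost ones. Isolated gained stretches were 2.71 times as many and 3.12 times as long in sum as isolated lost ones. The excess was thus larger away from control edges. At edges its size depended on the control list. Regions held 571 Mb in control 1 and 527 Mb in control 2, against 602 and 614 Mb in the double loss lists. Chosen from 1 list per group, stretches against control 1 summed to 80.989 Mb gained and 79.230 Mb lost with double loss 1 and to 85.864 and 78.450 Mb with double loss 2. Against control 2 they summed to 95.397 Mb gained and 61.649 Mb lost with double loss 1 and to 102.194 and 61.114 Mb with double loss 2. Gained exceeded lost length in all 4 pairs, by little against control 1. Gained minus lost edge length was 11.045 Mb with all lists and -0.341 Mb without control 2, a setting that puts 1 list against 2 and by construction favours one direction.

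Around flank extensions the 4 lists differed on both sides of the border. The plot of coverage by distance is aligned at the inner border, the end nearer to the control region. At 20 kb inward, 55.9% of the 741 positions were inside regions of control 1, 47.1% of control 2, 62.5% of double loss 1 and 66.5% of double loss 2. At 40 kb outward these values were 5.26%, 4.99%, 38.7% and 42.0%. Both double loss libraries were above both controls at each of these distances, but the choice of stretches bears on them. For flank extensions the rule keeps control regions out of the stretch and out of the 20 kb beyond it. Both controls were thus at 0% from the border to 30 kb outward. At 60 kb outward they had risen to 16.7% and 15.2%, against 40.2% and 41.3% in double loss. The difference at 40 kb outward is therefore shaped by the choice, and nothing is read from its size.

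**Figure D1:**
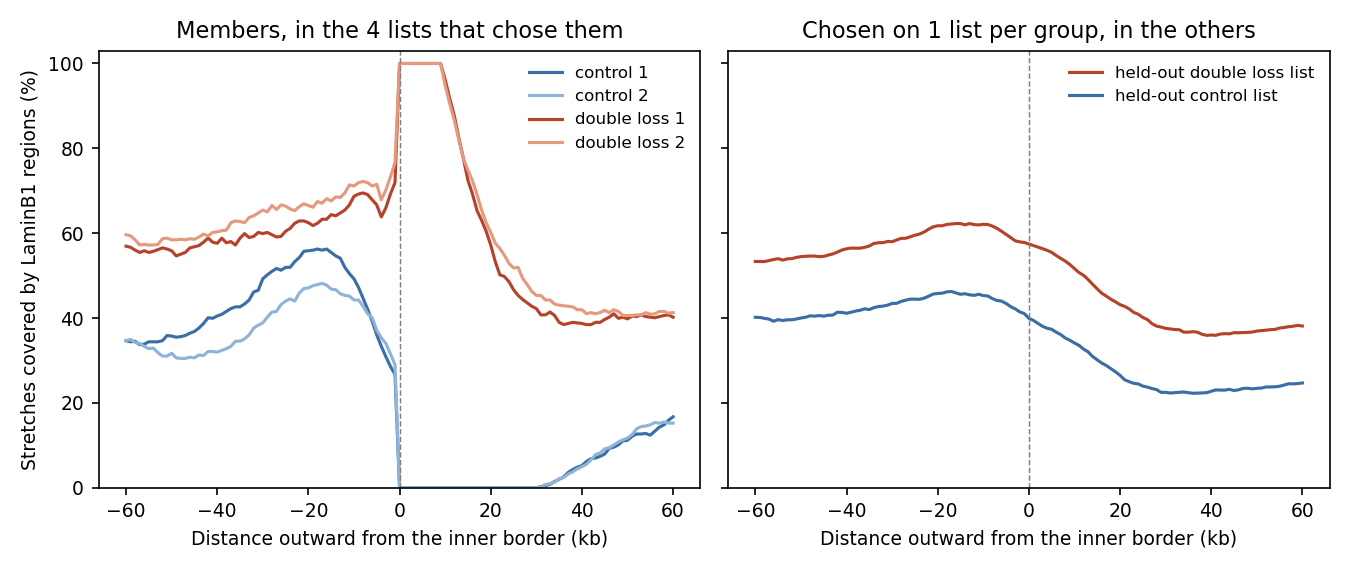
Share of positions inside LaminB1 regions (%, y axis) by distance outward from the inner border (kb, x axis). The left panel shows the 741 flank extensions in the 4 lists that chose them (controls blue, double loss red) and the right panel shows stretches chosen on 1 list per group in the remaining list of each group, averaged over the 4 choices. In the right panel double loss stays above control, with 55.5% against 37.4% at 5 kb outward and 36.0% against 22.8% at 40 kb outward.

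Coverage that the choice did not use was obtained by choosing stretches from 1 control and 1 double loss list by the same rule and reading the other 2 lists. Over the 4 possible choices, which share lists and are not independent, 3728 to 4717 stretches were chosen. The held-out double loss list covered 58.7 to 62.4% of their sequence and the held-out control list 36.6 to 46.6%, so the groups did not overlap. The mean difference was 18.8 points (SD 4.42 over the 4 choices, 14.2 to 23.04). With the groups exchanged, the chosen lost stretches were covered to 48.6% by held-out double loss lists and to 57.6% by held-out controls, a mean difference of -8.99 points (SD 4.52, -13.6 to -4.06). No test was run, since the 4 choices share lists and each leaves 1 list per group.

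**Figure D2:**
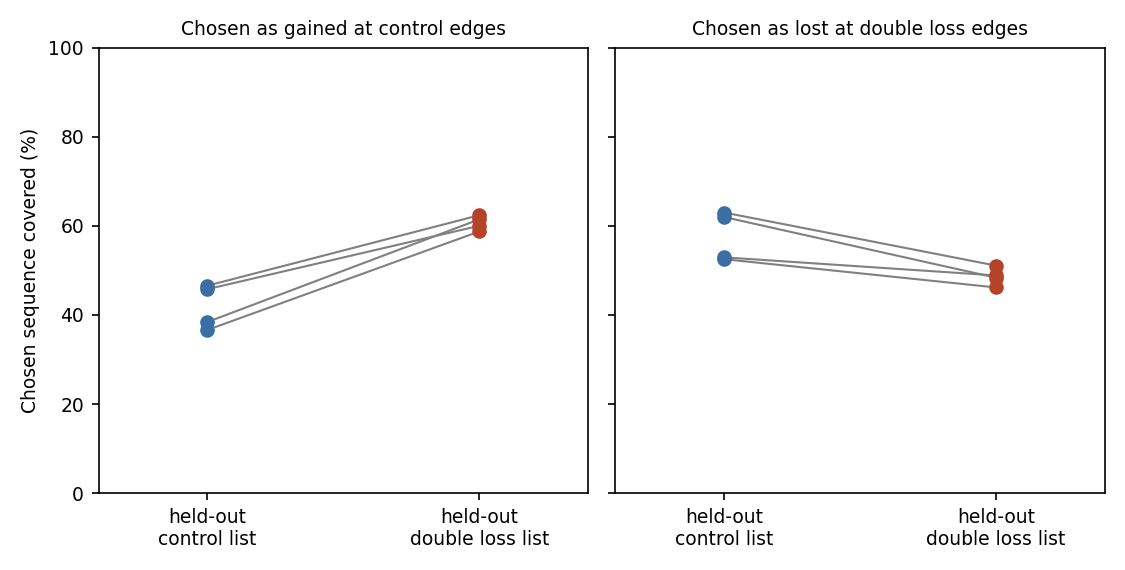
Share of chosen sequence (%, y axis) inside the held-out control list and the held-out double loss list, with 1 line for each of the 4 choices. All 4 lines rise for stretches chosen as gained (left, 14.2 to 23.04 points) and all 4 fall for stretches chosen as lost (right, -13.6 to -4.06 points). The choosing and the held-out list of a group share their control library.

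Longer stretches differed more between held-out lists. Stretches of 10 to 19 kb had a mean difference of 11.4 points (6.74 to 16.7), those of 20 to 49 kb 18.5 points (13.9 to 22.6) and those of at least 50 kb 43.7 points (38.8 to 50.3). In the shortest class the held-out control list still covered 48.96% of sequence that the other control list left out. Flank extensions had 22.3 points (18.4 to 25.7) and gap-filling stretches 14.1 points (9.06 to 19.1). Stretches chosen as lost had the same order, so it was not particular to gain. Their mean differences were -3.05 points (-7.58 to 1.58), -10.9 and -30.0 in the 3 length classes. They were -11.1 points for one-sided and -6.30 for gap-filling lost stretches.

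The outer edges were only roughly shared between the 2 double loss libraries. Each library's region reached a median of 21 kb beyond the inner border. The 2 outer edges of a flank extension differed by a median of 9 kb, and by at most 5 kb for 271 of 741 (36.6%). The extension was longer than this difference for 516 (69.6%). At the inner edge, 256 of 741 (34.5%) had an edge of both control lists within 20 kb. The 2 control edges differed by a median of 29.5 kb over the 722 that could be compared. The rule needs both double loss lists over the whole stretch, whereas a nearby region of either control list is enough. It thus ties the outer edges together more than the inner ones, so these values cannot show which edge was better shared.

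Gained edge stretches were spread unevenly over chromosomes. Chromosomes 8, 3 and 4 held 16.8, 15.96 and 14.6 kb per Mb of chromosome, while lost edge stretches took up 6.997, 4.27 and 3.44 kb per Mb there. Chromosomes 12 and 7 followed with 11.6 and 11.5 kb per Mb. By number, chromosome 8 had 0.538 stretches per Mb, against 0.837 on chromosome 3 and 0.789 on chromosome 4. Set against the length inside either control list, the stretches came to 3.55% on chromosome 8, 5.15% on 3 and 5.89% on 4. This share was highest on chromosomes 22 (46.3%, with only 389 kb of control regions), 21 (7.98%) and 14 (7.80%). On chromosomes 2, 10 and 13 the lost stretches took up more, with 9.06 gained against 11.4 lost, 4.73 against 6.23 and 3.86 against 6.36 kb per Mb. Chromosome 19, the most gene-dense, had 0. The held-out difference was above 0 in all 4 choices on 20 of 21 chromosomes, the exception being chromosome 19 with a lowest value of 0. It was 29.0 points on chromosome 8, 27.4 on chromosome 4, 25.9 on chromosome 3 and 3.83 on chromosome 13, and it was 18.1 over the whole set without chromosome 8. For lost stretches, 10 of 21 chromosomes were below 0 in all 4 choices and 4 were above.

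**Figure D3:**
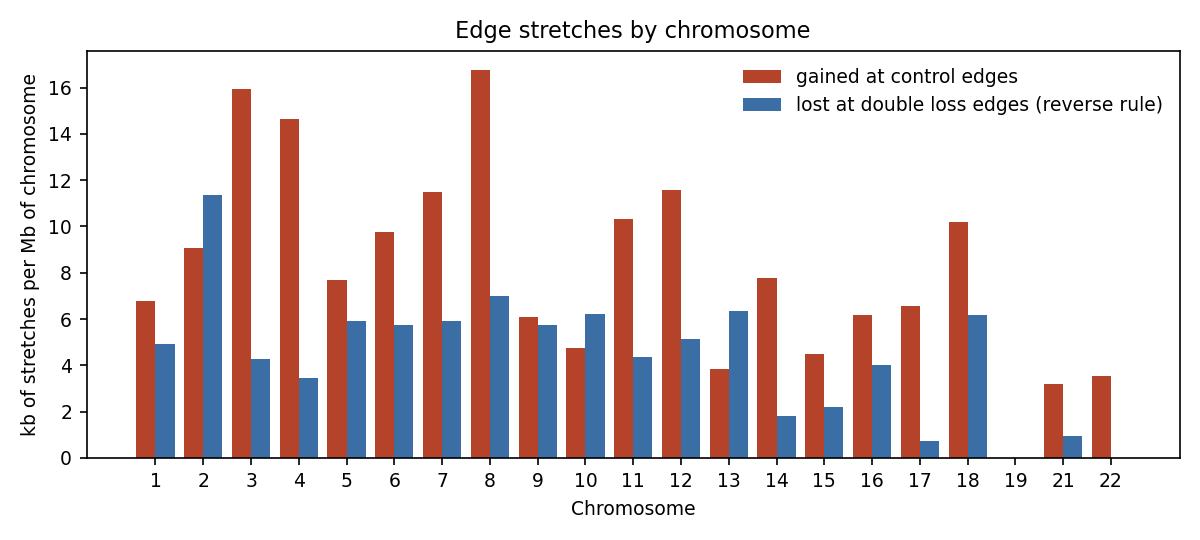
Length of edge stretches (kb per Mb of chromosome, y axis) by chromosome (x axis) for gained stretches (red) and for the reverse rule (blue). Red bars reach 16.8 on chromosome 8 and 15.96 on chromosome 3, and blue exceeds red on chromosomes 2, 10 and 13.

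The double loss regions that carried the stretches were wider than the rest and of ordinary enrichment. In double loss 1, 1302 regions carried the 1384 stretches, with a median width of 36 kb against 28 kb for other regions. In double loss 2 these were 1284 regions, 40 kb and 29 kb. The choice favours wide carriers, since each must hold a run of at least 10 kb, so nothing is read from this width. Regions that carried isolated gained stretches, chosen with the same minimum, had medians of 26 kb in double loss 1 and 27 kb in double loss 2. The deposited log2 fold of LaminB1 over control library, which is the authors' own value and is compared only within a list, had a median of 0.51 in carriers against 0.52 in other regions of double loss 1, and 0.50 against 0.51 in double loss 2. Among regions of 50 to 199 kb, carriers were lower, with 0.52 against 0.57 in each list. Among regions of 20 to 49 kb they were slightly higher, with 0.487 against 0.478 in double loss 1 and 0.473 against 0.467 in double loss 2. The control regions beside the stretches had a log2 fold of 0.53 against 0.56 for other regions in control 1 and 0.57 against 0.61 in control 2. Some carriers stood alone: 322 (24.7%) in double loss 1 and 286 (22.3%) in double loss 2 overlapped no control region, so the stretch was a region near a control region, not an outgrowth of it.

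The read totals behind the lists differed between groups. Reads inside regions were 7061883 and 6951666 in the control LaminB1 libraries and 8045702 and 8241874 in the double loss ones, and the matching control library reads were 3898196, 3617594, 5323569 and 5415439. Regions with identical edges had equal control library counts in 96 of 96 cases within a group and in 1 of 146 between groups, so each group was called against a control library of its own. Control library, cell line, TOP2B genotype and auxin therefore cannot be told apart. In 3 Mb windows, read density in sequence called in all 4 lists was compared between groups relative to the median of 384 windows. At the 976 stretches inside such windows the relative log2 ratio of double loss to control had a median of -0.01 for the control library and 0.01 for LaminB1, against interquartile ranges over all windows of -0.03 to 0.03 for each. The lists give no reads outside regions and no library totals, so control cells have no read counts in the stretches here.

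Many of the longest stretches were on the long arm of chromosome 8. Of the 22 stretches of at least 50 kb, 9 were on chromosome 8 (1044 kb), 3 each on chromosomes 3 and 4, and 2 each on chromosomes 2 and 10. In chr8:125000001-130000000, the 5 Mb block with the longest stretch, 7 stretches summed to 864 kb, which was 35.5% of the chromosome's gained edge length, and coverage of this interval was 8.32% and 7.90% in the controls and 39.04% and 40.4% in double loss. Without the interval chromosome 8 held 11.2 kb per Mb. The longest stretch, chr8:126002001-126280000 (278 kb), adjoined a region of control 1 on its left and contained no protein-coding gene, with TRIB1, a pseudokinase, 564 kb to the left and LRATD2 272 kb to the right. The next, chr8:129476001-129688000 (212 kb), overlapped the long non-coding RNA CCDC26 and ended 17.4 kb before GSDMC, a pore-forming gasdermin. Further stretches of this interval were chr8:128905001-129003000 (98 kb), chr8:126678001-126765000 (87 kb) and chr8:128820001-128892000 (72 kb), none with a protein-coding gene.

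In medians, carriers of the long stretches had more control library reads and lower folds than carriers of short ones, but this differed by chromosome. For stretches of at least 50 kb the carriers had a median of 12.1 and 12.3 control library reads per kb in the 2 double loss lists, against 8.10 and 8.15 for stretches of 10 to 19 kb, and the median log2 folds were 0.38 and 0.37 against 0.51 in each list. The carrier of the longest stretch had 12.1 and 12.4 control library reads per kb and folds of 0.27 and 0.23. A stretch at chr22:11865001-11960000 (95 kb), on the short arm of that chromosome, had 32.4 and 29.0 control library reads per kb and folds of 0.10 and 0.11, the weakest carrier enrichment among the 15 longest. Among the 15 longest, carriers on chromosomes 8, 10 and 22 had 11.2 to 32.4 control library reads per kb and folds of 0.10 to 0.51. Those on chromosomes 2, 3 and 12 had 7.27 to 8.29 reads per kb, near the carriers of short stretches, and folds of 0.48 to 0.85. The part of local read density in these long calls was not tested.

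Protein-coding genes lay in several of the 15 longest stretches. The stretch chr10:121473001-121595000 (122 kb) held 117 kb of FGFR2, a fibroblast growth factor receptor, between a control 2 region that adjoined it and a control 1 region 19 kb away. FGFR2 was covered to 0% and 0% in the controls and to 100% and 96.7% in double loss, with weak carrier folds of 0.17 and 0.23 and 13.4 control library reads per kb in both lists. The stretch chr10:122850001-122925000 (75 kb) held both FAM24 genes whose promoters are printed above, covered to 0% in both controls and to at least 96.8% in both double loss lists, with carrier folds of 0.17 and 0.13. Outside these loci, chr12:72153001-72236000 (83 kb) lay in TRHDE, a peptidase that cleaves thyrotropin-releasing hormone, with carrier folds of 0.62 and 0.63. The stretch chr2:212375001-212452000 (77 kb) lay in ERBB4, a neuregulin receptor, with folds of 0.61 and 0.62. The stretch chr3:174906001-174998000 (92 kb) lay in NAALADL2 with folds of 0.85 and 0.79. Of the rest, chr8:117958001-118073000 (115 kb) lay in EXT1, a heparan sulphate polymerase, and chr3:146896001-146959000 (63 kb) overlapped LINC02010. The stretches chr3:162029001-162110000 (81 kb) and chr8:88692001-88757000 (65 kb) held no annotated gene.

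Gained edge stretches reached 396 protein-coding genes by at least 1 kb, or 2.13% of the 18585 on these chromosomes and 13.3% of the 2988 with any sequence inside a region. Lost edge stretches reached 263 genes (1.42%), and 56 genes had both. The overlap was of at least 10 kb in 342 genes and of at least 50% of the gene in 33, and 16 genes lay wholly inside a stretch. The genes reached were long, with a median of 219 kb against 69 kb for genes in any region and 26 kb for all. At least 100 kb was the length of 74.7% of them, against 42.5% and 17.2%. The part of gene length in the counts below was not tested. Over the whole body, 296 of the 396 genes were covered more in both double loss lists than in either control list, and 12 less. Of all 2988 genes in any region, 654 (21.9%) were covered more and 369 (12.3%) less. The choice of stretches favours the higher count among the 396, so nothing is read from it.

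Gene bodies made up 37.2% of the gained edge sequence, 30.03% of isolated gained stretches, 36.7% of lost edge stretches, 38.3% of sequence called in all 4 lists and 42.6% of the chromosomes. Per Mb of sequence, gained edge stretches overlapped 15.5 protein-coding and 12.7 lncRNA genes, lost edge stretches 18.1 and 17.4, and sequence called in all 4 lists 4.301 and 7.51. A gene counts once in each set, whatever its length inside. No protein-coding gene was touched by 819 stretches (59.2%). Mapped gene starts were sparse, with 1.77 per Mb against 2.60 in lost edge stretches, 1.41 in sequence called in all 4 lists and 5.52 over the chromosomes, all without chromosome 8, for which the starts used here are not listed. MicroRNA genes were present in 7 cases of 1745.

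NAALADL2 held the most gained edge sequence of any gene, with 390 kb in 11 stretches. Its 1371 kb body (chr3:174440982-175810548, plus strand) was covered to 33.6% in control 1, 30.1% in control 2, 94.3% in double loss 1 and 95.8% in double loss 2. The controls had 17 and 20 separate regions of at most 64 and 67 kb, whereas double loss had 14 and 11 regions of up to 258 and 633 kb, and 6 of the 11 stretches filled gaps. The log2 folds of the double loss regions were high, with medians of 0.82 and 0.84 and lowest values of 0.69 and 0.67, above the upper quartile of carriers (0.61 and 0.60). In the 3 Mb window around the gene's centre, sequence called in all 4 lists had a relative log2 ratio of double loss to control of 0.16 for LaminB1 and -0.05 for the control library.

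MARCHF1, a membrane-bound ubiquitin ligase that lowers surface MHC class II, had the second largest amount, with 298 kb in 17 stretches of 10 to 36 kb. Its 861 kb body (chr4:163524298-164384019, minus strand) was covered to 22.1% and 18.7% in the controls and to 79.2% and 77.8% in double loss. The controls had 7 and 9 regions and double loss 17 and 16, with medians of log2 fold of 0.69 and 0.71 in double loss. The window around its centre had relative log2 ratios of 0.13 for LaminB1 and -0.11 for the control library. In the map of both genes the control regions of NAALADL2 are bridged into near-continuous coverage, while MARCHF1 keeps many breaks.

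**Figure D4:**
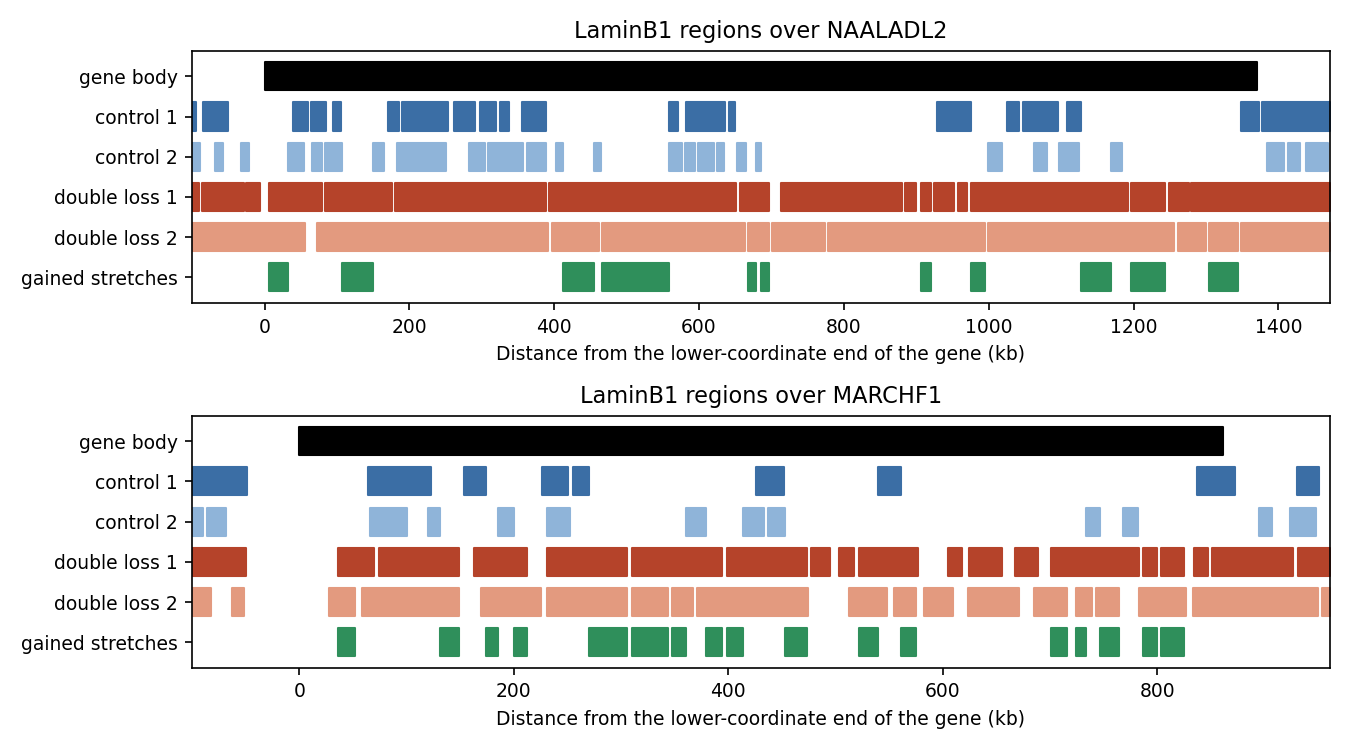
LaminB1 regions over NAALADL2 (top) and MARCHF1 (bottom) by distance from the lower-coordinate end of the gene (kb, x axis), with 1 row for the gene body, 1 for each list and 1 for the gained edge stretches (green). The 11 stretches of NAALADL2 sum to 390 kb and the 17 of MARCHF1 to 298 kb, and most lie beside or between control regions.

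The 25 genes with the most gained edge sequence were nearly all long: 24 were at least 100 kb and 19 at least 500 kb. In all 25 both double loss lists covered more of the gene than either control list, which the choice of genes favours. OPCML, a GPI-anchored adhesion protein, had 129 kb in 8 stretches and was covered to 41.3% and 35.5% in the controls and to 58.3% and 67.6% in double loss. CNTN4, a contactin, had 112 kb in 7 stretches and 31.2%, 39.2%, 57.3% and 52.7% in the same order. NRXN3 had 89 kb and a narrow separation, with 56.4%, 56.7%, 64.0% and 64.9%. CNTNAP2, a relative of the neurexins with a body of 2305 kb, had 72 kb and 31.3%, 29.0%, 47.8% and 49.8%.

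ERBB4, with 135 kb in 4 stretches, was covered to 76.0% and 70.6% in the controls and to 92.8% and 93.9% in double loss. NRG1, which encodes neuregulin ligands of ERBB4, had 100 kb in 5 stretches and 25.9%, 25.4%, 52.1% and 46.4%. GRM3, a metabotropic glutamate receptor, had 0% and 3.6% in the controls and 58.1% and 65.8% in double loss, with 91 kb in 3 stretches. DCC, the netrin receptor, had 66 kb and stayed low, with 8.11%, 8.95%, 26.6% and 22.7%. RGS7, a regulator of G protein signalling, had 93 kb and 63.9%, 63.2%, 83.0% and 92.1%. TRHDE had 3.25%, 0%, 51.7% and 47.3%, with all of its 83 kb in 1 stretch.

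MAGI2, a synaptic and junctional scaffold, had 22.8%, 13.4%, 43.6% and 47.9%, and ERC2, an active zone scaffold, had 59.1%, 49.4%, 66.6% and 61.9%, one of the narrowest separations. KCNIP4, a potassium channel interacting protein, had 38.8%, 27.8%, 51.5% and 48.6%. ABCA5 had no control coverage and 100% and 85.7% in double loss, with 72 of its 84 kb in 2 stretches, and the neighbouring ABCA10, at 85.6% and 70.1% in the controls, had 100% in both. EXT1 had 55.0%, 46.5%, 87.7% and 94.3%. ADAMTS17, a secreted metalloprotease, had 19.9%, 25.6%, 65.2% and 66.3% and also 16 kb of lost edge sequence. KIF26B, a kinesin family member, had 41.9%, 31.1%, 71.0% and 80.4%, and TAFA1, a secreted neurokine, had 56.9%, 42.7%, 81.1% and 81.6%. OR2L13, whose annotated span of 165 kb includes other olfactory receptor genes, had 34.5%, 0%, 78.2% and 87.9%. CCDC171 had 51.9%, 29.3%, 65.5% and 60.5%, and ZNF385D, a zinc finger gene, had 28.7%, 25.7%, 42.1% and 49.5%. The double loss minus control difference was also read with only the upper 50% of each list's regions by log2 fold. It was 0 points for FGFR2 and ABCA5, -3.62 for EXT1 and -0.404 for ADAMTS17, and it stayed above 0 in the other 21 genes. Among these it fell from 16.1 to 0.293 points for DCC and from 16.7 to 0.737 for KCNIP4. It rose from 63.2 to 79.2 points for NAALADL2 and from 24.1 to 42.6 for RGS7.

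**Figure D5:**
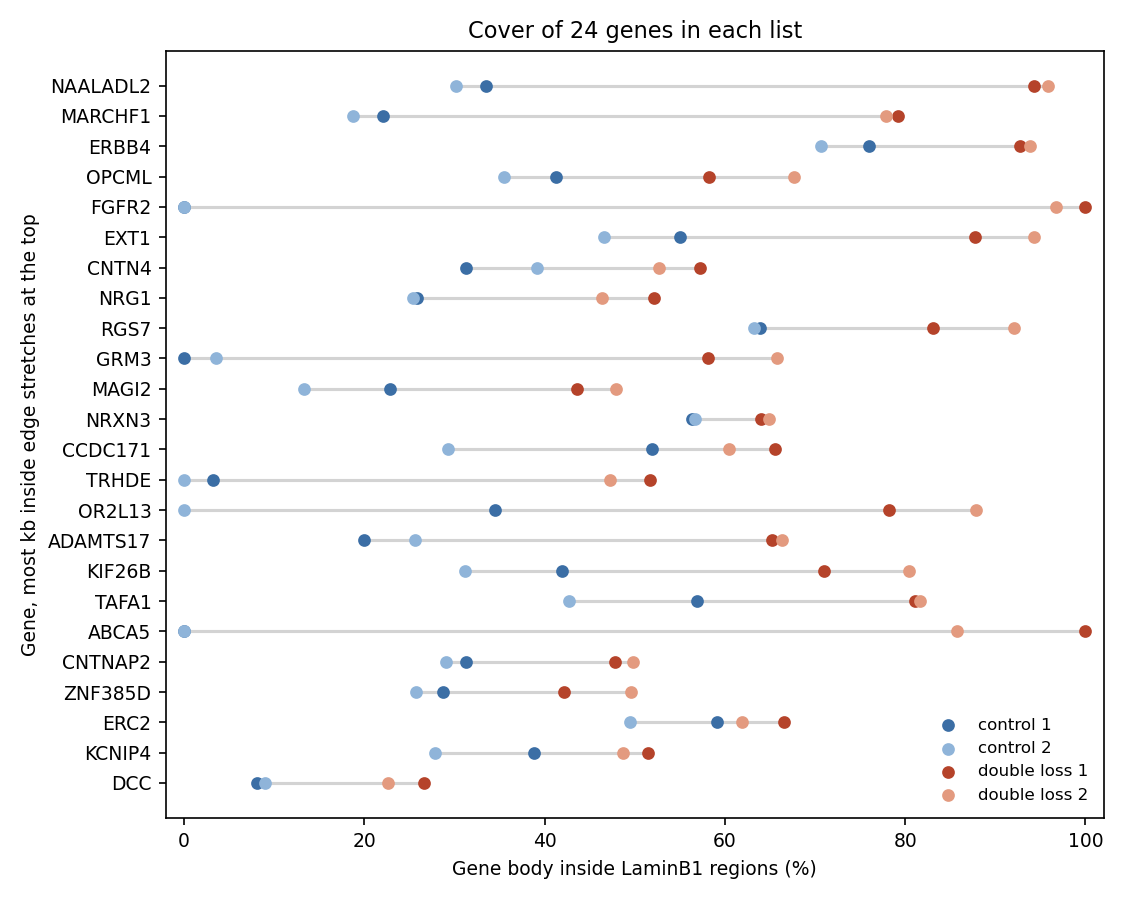
Share of the gene body inside LaminB1 regions (%, x axis) in each of the 4 lists for 24 of the 25 genes with the most gained edge sequence (y axis, most at the top), with controls in blue and double loss in red. Red points lie to the right of blue points in every gene drawn, from a narrow separation at NRXN3 (64.0 and 64.9% against 56.4 and 56.7%) to a full one at FGFR2 (100 and 96.7% against 0 and 0%).

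The 25 gene lists are read against 2.13% of all genes and 13.3% of genes in any region. Neuronal adhesion genes were reached in 11 of 41 (26.8%), or 44.0% of the 25 in any region, and lost edge stretches reached 5. Protocadherins, cell surface cadherins that give neurons distinct identities, were reached in 17 of 63 (27.0%), or 32.7% of 52, and 0 by lost stretches. These 17 genes are not separate events, since they share 3 stretches: chr5:140942001-140959000 (17 kb) alone touched 14 of them, among them PCDHA1, PCDHA10 and PCDHA11, whose bodies overlap. Glutamate and GABA receptors were reached in 6 of 43 (13.95%), or 28.6% of 21, with 44 kb in GABRB2 and 28 kb in GRM8 beside GRM3. ABC transporters were reached in 4 of 39, or 33.3% of 12, with 35 kb in ABCB4, a phospholipid exporter. These 4 are not separate events either, since ABCA5 and ABCA10 share the stretch chr17:69231001-69265000. Potassium channel genes were reached in 7 of 89, or 21.2% of 33, with 46 kb in KCND2.

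Solute carriers were reached in 13 of 371 (3.50%), or 19.1% of 68, and by lost stretches in 9. Among them SLC25A21, a mitochondrial carrier, held 53 kb and was covered to 37.5% and 25.2% in the controls and to 64.7% and 66.1% in double loss. Olfactory receptors were reached in 10 of 391 (2.56%), or 5.13% of the 195 in any region, below the 13.3% of all genes in regions. Cadherins and catenins had 3 of 26 (11.5%, or 27.3% of 11) with gained and 4 with lost stretches, and CTNNA2 and CTNND2 had both. ADAM proteases had 3 of 44 (13.04% of 23 in any region) gained and 6 lost, and homeobox and developmental factors 5 of 200 (13.5% of 37) gained and 7 lost. Zinc finger genes had 4 of 459, collagens 3 of 40 (3 of 15 in any region), axon guidance genes 2 of 66, WNT pathway genes 2 of 56 and glucuronosyltransferases and cytochromes 2 of 77. Claudins and tetraspanins had 2 of 44 (28.6% of 7 in any region), CLDN16 with 53 kb and CLDN1 with 13 kb, which overlap. FGF pathway genes had 1 of 36 (FGFR2), and keratins and keratin-associated proteins 1 of 152. No member was reached among 35 sodium and calcium channels, 113 chemokines and interferons, 33 serpins, 75 ribosomal protein genes and 79 core histone genes. In the same order, only 14, 16, 10, 2 and 0 of them lay in any region. Few or none could thus be reached, and nothing is read from their absence.

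Marker genes were read only as a description, since LaminB1 regions do not measure expression. The 10 colon epithelium markers, among them EPCAM, CDH1, KRT20, CDX2 and LGR5, had 0% coverage in all 4 lists. Of 5 neuron markers on the chromosomes used, MAP2 was reached, with 33 kb and coverage of 78.5% and 65.9% in the controls and 93.2% and 87.8% in double loss. NEFL went the other way, with 100% in both controls and 0% in both double loss lists, and SYT1 had 7.12% and 4.41% in the controls and 0% in double loss. STMN2 had 100% in both controls and 100% and 92.9% in double loss, and RBFOX3 had 0% in all 4 lists.

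The orientation of the flanking genes was near that of intergenic sequence as a whole. Of 542 intergenic gained edge stretches without chromosome 8, 119 (21.96%, exact interval 18.5 to 25.7%) lay between convergent genes, 135 (24.9%) between divergent and 288 (53.1%) between tandem genes. Intergenic sequence was 22.6%, 24.4% and 53.0% by length. Isolated gained stretches lay between convergent genes in 101 of 314 cases (32.2%, 27.0 to 37.6%) and lost edge stretches in 54 of 348 (15.5%, 11.9 to 19.8%). Neighbouring stretches can share 1 gene pair, so the intervals are too narrow. Inside genes, with the body cut into 3 equal parts, 124 of 401 stretches (30.9%) had their centre in the first, 154 (38.4%) in the middle and 123 (30.7%) in the last part. Of 213 flank extensions inside genes, 108 (50.7%, 43.8 to 57.6%) ran outward in the direction of transcription and 105 against it.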

How the data were processed

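Regions of 4 LaminB1 CUT&RUN libraries from 2 groups were used. The submitters' processing notes name Bowtie2 (2.3.4.3), Picard and the build hg38; the region caller is not given in the sources used here. Per the file headers, the authors deposited for each region raw counts of LaminB1 and control library reads, a p-value with its adjusted p-value (all under 0.05), a score and a log2 fold. The score is 100 times the log2 fold. Each library has its own list, and folds were compared inside a list.

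Coverage on 1 kb steps was computed in Python 3.11.15 (numpy 2.4.6, pandas 2.3.3), exact intervals (Clopper-Pearson, 95%, counting error only) came from scipy 1.17.1 and figures from matplotlib 3.10.9. Genes, promoters and microRNAs came from RefSeq tables of GRCh38.p14, the same assembly as hg38; 14716 of 18585 protein-coding genes had a mapped start. The scripts were tested on made intervals. Members and gene lists were chosen with earlier results of these data known. Named were the 15 longest stretches, the 25 genes with the most gained edge sequence (at most 1 per stretch), up to 3 members per list, and promoters of up to 6 named genes. Of the 25 genes, 1 is not reported here. No test was run on coverage, because it chose the stretches. Alternatives changed the length and distance limits, the regions used, the neighbour required, chromosome 20 and each library in turn.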

Additional observations from a re-analysis of the deposited data

How the results depend on the processing

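No paired analysis was possible because no result comes from a test. The number of stretches (1384) became 2595 at a minimum of 5 kb, 397 at 20 kb, 695 with a neighbour in both control lists on the same side, and 2250 to 2819 without 1 library. Their length (25.546 Mb) became 11.999 Mb at a minimum of 20 kb, 16.744 Mb for adjoining stretches, 11.698 Mb with a neighbour in both lists, and 42.89 to 60.558 Mb without 1 library. The share of gained length at control edges (45.5%) became 59.6% at 5 kb, 21.4% at 20 kb, 39.4% within 10 kb, 53.1% within 50 kb, 29.8% for adjoining stretches, 20.8% with a neighbour in both lists, 52.1% in the upper 50% of regions by log2 fold, 54.8% with regions joined over 5 kb, and 46.8 to 49.7% without 1 library. The held-out difference (18.8 points) became 26.5 in the upper 50% of regions and moved by less than its SD otherwise. It was not run without 1 library, since both lists of each group are needed, or with a neighbour in both lists.

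The following results were added after seeing the data. Gained minus lost edge length (11.045 Mb) was 6.713 Mb at 20 kb, 4.048 Mb with a neighbour in both lists, 3.815 Mb in the upper 50% of regions, 5.1 Mb with chromosome 20 kept, and -0.341 Mb (without control replicate 2) to 27.808 Mb (without double loss replicate 1) without 1 library. Leaving out a library sets 1 list against 2, which by construction favours one direction. Of the 25 genes, all kept higher coverage in double loss under 6 of 7 settings. In the upper 50% of regions 21 did, though DCC and KCNIP4 by only 0.293 and 0.737 points. FGFR2 and ABCA5 had 0 points there, EXT1 had -3.62 and ADAMTS17 -0.404 points, and the cause was not tested. Region lists give no reads outside regions, so depth limits what can be said of sequence left uncalled.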
